A study of Mus musculus with 24 samples.

Results

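Macrophages grown from bone marrow (BMDMs), from wildtype (WT) mice and from mice without the aryl hydrocarbon receptor (AhR-KO), were compared for their transcriptional response to lipopolysaccharide (LPS), and the subject here is the interaction of genotype and LPS over all genes. For each gene this is the LPS response in AhR-KO cells minus the LPS response in WT cells on the log2 scale, so that a value of 1 means a fold change upon LPS that was larger by a factor of 2 in AhR-KO cells. Genes came from the whole count table and were selected only by a minimum of counts: of 55421 genes, 16593 had enough to be tested. All 24 libraries entered, 6 in each of 4 groups, namely unstimulated WT, LPS-stimulated WT, unstimulated AhR-KO and LPS-stimulated AhR-KO BMDMs. The study's methods give C57BL/6J animals as WT and, as AhR-KO, animals with the Ahr tm1Bra allele on a B6.129 background, a germline deletion present in every cell. Both genotypes were cultured with 10 ng/ml GM-CSF and 2 ng/ml TGF-β, which drive an alveolar-like macrophage in culture. Stimulated cultures received 97 EU/ml LPS from day 6 for 24 h, and the protocol ends with 10 min of the Ca2+ ionophore A23187 at 5 µM, without saying whether unstimulated cells received it. The methods give mice of both sexes, 7 to 14 weeks old, for the study at large. The labels do not say whether an unstimulated and a stimulated culture shared an animal, so p-values measure the spread between these libraries.

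AhR is a transcription factor activated by small ligands such as tryptophan metabolites and dietary or environmental aromatic compounds. With its partner ARNT it binds response elements of target genes such as Cyp1a1 and Ahrr, and in macrophages and dendritic cells it is known to restrain inflammatory cytokines. LPS is sensed by TLR4, which signals through MYD88 to NF-κB and AP-1 and through TRIF to the interferon regulatory factors, so that an early wave of cytokines is followed by interferon-stimulated genes, metabolic rewiring and arrest of the cell cycle.

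Without AhR, LPS responses were more often enlarged than diminished. The interaction was called for 713 genes, 4.30% of those tested, at an adjusted p of at most 0.05 in the quasi-likelihood F-test of edgeR with Benjamini-Hochberg adjustment, which gave every adjusted p below unless another method or an alternative is named. It was higher in AhR-KO BMDMs for 324 genes (1.95%) and lower for 389 (2.34%). Absolute sizes ran from 0.42 to 7.12 on the log2 scale, with a median of 1.66, and 639 of the genes were protein coding. The median over all genes tested was −0.05. Library numbers form 3 runs of 8 with 2 libraries of each group, and the sign was the same in every run for 700 of the 713 genes (98.2%), against 41.9% of all genes tested. The 713 were called on these same libraries, so the first share is in part fixed by the call. The number of calls rose to 2729 with each library's slope on gene length as a covariate and included all 713, while scaling to the total library size gave 252 higher and 550 lower. In 33 of the genes a group had at most 3 counts over its 6 libraries, for which no fold change is given.

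Each gene was then placed by the LPS response in either genotype, taken from the same model, in which LPS changed 6305 genes in WT (38%) and 7402 in AhR-KO BMDMs (44.6%). Among the 8408 genes that responded in at least 1 genotype, the interaction was called for 8.48%. In 389 genes the response had the same direction in both and was larger in AhR-KO BMDMs (amplified), 200 of them induced and 189 repressed by LPS. The response was smaller (blunted) in 20 genes, 13 induced and 7 repressed. It had opposite directions (reversed) in 41 genes, of which 26 were induced and 15 repressed in WT. A further 184 genes responded in AhR-KO BMDMs without passing the test in WT (gained, 73 induced and 111 repressed). Another 79 responded in WT without passing the test in AhR-KO BMDMs (lost, 50 induced and 29 repressed). Amplified genes made up 95.1% of the 409 called genes with the same direction in both genotypes. This leaning was also present below the threshold. Of 4849 further genes that responded in the same direction in both genotypes, 3410 had the larger response in AhR-KO and 1439 in WT BMDMs.

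**Figure D1:**
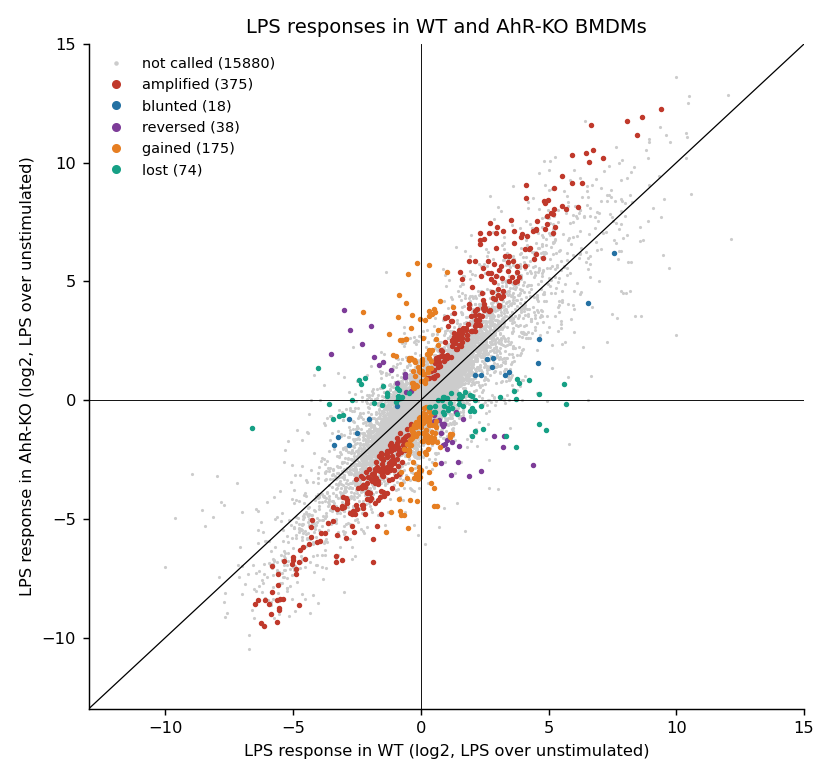
LPS response of each gene tested in WT (horizontal axis) and AhR-KO BMDMs (vertical axis), both as log2 of LPS over unstimulated from the edgeR fit. Grey points had no called interaction, coloured points are the 680 called genes with more than 3 counts in every group, by class, and the line marks equal responses, which most amplified genes (375 points) leave towards a steeper response in AhR-KO BMDMs.

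The difference between genotypes was taken before and after LPS for the amplified genes. Over all genes, 1015 genes differed before LPS (6.12% of those tested) and 2096 after it (12.6%). Of 191 amplified induced genes with more than 3 counts in every group, 173 were lower in AhR-KO than in WT BMDMs before LPS and 176 were higher after LPS, with median differences between genotypes of −0.73 and 0.84 on the log2 scale. These are counts of signs: 75 of the 191 passed the test between genotypes before LPS, 100 passed after it and 15 passed in both states. The interaction is the difference after LPS minus the difference before it. The call therefore in part fixes these signs and medians, here and for the repressed genes below. Of the 184 amplified repressed genes, 135 were higher in AhR-KO BMDMs before LPS, by a median of 0.16, and 182 were lower after LPS, with a median of −1.45. Here 24 passed before LPS, 162 after it and 13 in both. Over all 680 genes, the genotypes stood further apart after LPS in 475 and closer together in 205. Since an interaction of fold changes need not have the sign of the difference in level, the difference of differences of mean CPM was also taken, and it had the same sign as the interaction in 662 of the 713 genes and the opposite sign in 51.

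**Figure D2:**
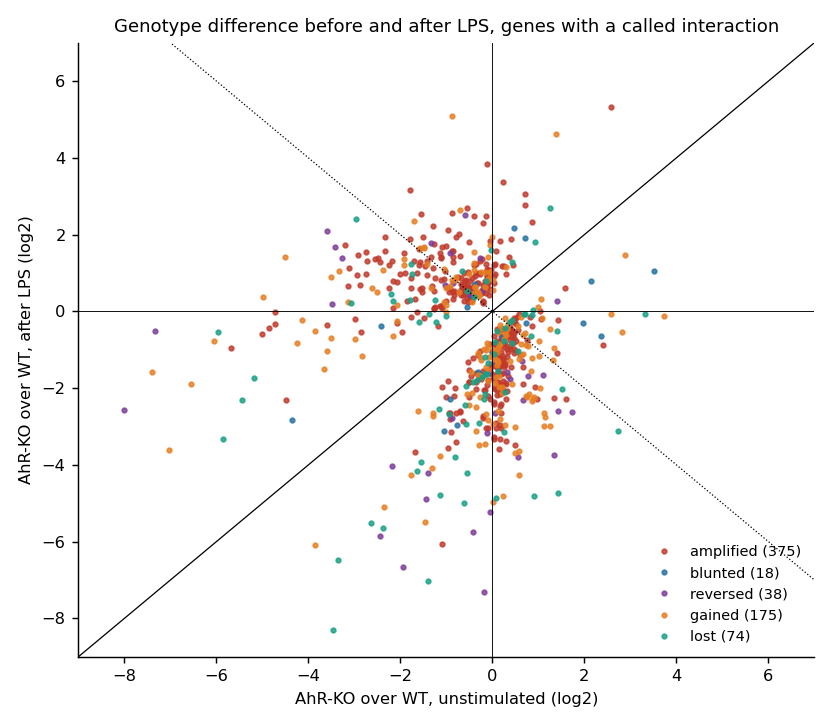
Difference between AhR-KO and WT BMDMs before (horizontal axis) and after LPS (vertical axis), as log2 of AhR-KO over WT, for the 680 called genes with more than 3 counts in every group, coloured by class. The solid line marks equal differences and the dotted line equal size with opposite sign, and amplified induced genes centre on the upper left, with median differences of −0.73 before and 0.84 after LPS. The call in part fixes this place, since the interaction is the vertical minus the horizontal value.

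Libraries held 45106052 to 76992663 counts. TMM factors, which scale for composition, differed with the group and were 0.704 to 0.875 in LPS-stimulated AhR-KO libraries and 0.977 to 1.30 in unstimulated WT libraries. Within a library, log2(CPM + 0.5) regressed on the log2 length of genes gave a slope of 0.208 to 0.312 in the second run of library numbers and −0.28 to 0.135 in the third. Library 33, unstimulated WT, had the highest summed level of neutrophil markers, 13004 CPM, where the group's median was 2998. Neutrophil markers were lower in AhR-KO BMDMs both before LPS (288 to 837 CPM, against 2228 to 13004 in WT) and after (348 to 1122 CPM, against 1231 to 8859), and dendritic and Langerhans cell markers were lower with some overlap, after LPS (439 to 1874 CPM, against 1251 to 3653) and before it (78.9 to 175 CPM, against 175 to 468). Of the 15 tested members of the dendritic list, 11 were lower and 4 higher in AhR-KO BMDMs before LPS, and 12 lower and 3 higher after it. The median differences were −3.30 and −1.85. The test between genotypes passed for 12 before LPS, where 6.12% of all genes did, and for 12 after, where 12.6% did. Clec9a passed before LPS as higher in AhR-KO BMDMs (1.34, adjusted p = 0.00461). The interaction was called for 1 of these 15 and for none of 14 neutrophil markers, against 4.30% of all genes. In bulk RNA fewer cells of a type and less RNA per cell cannot be told apart, and the part of other cells in the calls was not tested. Alveolar macrophage markers were present in all groups, at a summed 8231 to 11049 CPM in WT and 10451 to 13982 in AhR-KO BMDMs before LPS, and 3988 to 8506 and 7529 to 11388 after it. Before LPS, 15 of the 16 were higher in AhR-KO BMDMs, with a median difference of 0.75, and 3 of the 16 passed that test. After LPS, 9 were higher and 7 lower, with a median of 0.08, and 3 passed. Library 33 and the unstimulated AhR-KO library 19 had the lowest length slopes, −0.28 and −0.296, and without both 748 genes were called, 636 of them among the 713.

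Ahr (ENSMUSG00000019256, chr12:35497974-35535038) itself was among the called genes. Ahr ranged from 9.6 to 43.1 CPM (median 30.7) in unstimulated and 6.57 to 27.9 CPM (median 18) in LPS-stimulated WT BMDMs, and from 4.74 to 11 CPM (median 7.4) and 21.4 to 63.8 CPM (median 39.2) in AhR-KO BMDMs. LPS raised the transcript in AhR-KO BMDMs, whose stimulated libraries all lay above their unstimulated ones, while WT groups overlapped. The interaction was 3.29 (SE 0.50, adjusted p = 0.000375), with LPS responses of −0.75 in WT and 2.54 in AhR-KO BMDMs. Counts sum all exons of the gene, so they do not test the deletion. The AhR repressor gene Ahrr, a direct target, averaged 42.3 and 64.1 CPM in WT BMDMs before and after LPS and 0.515 and 0.213 CPM in AhR-KO BMDMs, and its interaction was not called (−1.85, adjusted p = 0.161). Within 10 Mb of Ahr on chromosome 12, 9 of 62 genes tested were called (14.5%, against 4.30% of all genes tested). Among them were Cmpk2 and Rsad2, both interferon-stimulated, and Scin of the AhR pathway list. The deletion and any donor-strain sequence linked to it cannot be told apart in this design.

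The lowest p-value of all belonged to Cyp51 (ENSMUSG00000001467, chr5:4081145-4104746), the lanosterol demethylase of cholesterol biosynthesis. Cyp51 ranged from 246 to 302 CPM (median 262) in unstimulated and 68.1 to 124 CPM (median 95.3) in LPS-stimulated WT BMDMs, and from 309 to 385 CPM (median 331) and 16.3 to 28 CPM (median 23.4) in AhR-KO BMDMs. All 6 AhR-KO libraries lay above all WT libraries before LPS and below all of them after it. LPS repressed the gene in both genotypes, by −1.49 in WT and −3.88 in AhR-KO BMDMs, and the interaction was −2.39 (SE 0.20, adjusted p = 2.35e-07). Fdft1 (ENSMUSG00000021273, chr14:63145150-63179578), which encodes squalene synthase of the same pathway, was also repressed more deeply in AhR-KO BMDMs. Fdft1 ranged from 69.5 to 104 CPM (median 77.8) in unstimulated and 21.7 to 37.2 CPM (median 27.7) in LPS-stimulated WT BMDMs, and from 85.2 to 104 CPM (median 93.7) and 9.5 to 14.1 CPM (median 11.3) in AhR-KO BMDMs. The stimulated AhR-KO libraries lay below every stimulated WT library, with an interaction of −1.52 (SE 0.19, adjusted p = 4.64e-05).

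Rab27a and Gga2 were also among the lower calls. Rab27a (ENSMUSG00000032202, chr9:73044854-73097629) encodes a small GTPase that docks secretory granules. Rab27a ranged from 20.2 to 42.9 CPM (median 37.6) in unstimulated and 34.1 to 87.6 CPM (median 66.1) in LPS-stimulated WT BMDMs, and from 7.25 to 17 CPM (median 14.3) and 1.47 to 2.61 CPM (median 2.14) in AhR-KO BMDMs. It rose upon LPS in WT by 0.80 and fell in AhR-KO BMDMs, with a response of −2.64, so that the stimulated groups were far apart. The interaction was −3.44 (SE 0.33, adjusted p = 1.43e-06). Gga2 (ENSMUSG00000030872, chr7:121986722-122021222), a clathrin adaptor between the Golgi and endosomes, was reversed in the same sense. Gga2 ranged from 69.3 to 80.3 CPM (median 77.3) in unstimulated and 151 to 255 CPM (median 199) in LPS-stimulated WT BMDMs, and from 83.6 to 104 CPM (median 95) and 42.4 to 77.6 CPM (median 69.5) in AhR-KO BMDMs. Every stimulated WT library exceeded every unstimulated WT library, and every stimulated AhR-KO library was below every unstimulated AhR-KO library. Its interaction was −1.89 (SE 0.19, adjusted p = 3.09e-06).

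Ffar2 (ENSMUSG00000051314, chr7:30818348-30823775), a receptor for short-chain fatty acids, was repressed in both genotypes and more deeply in AhR-KO BMDMs. Ffar2 ranged from 61 to 90.6 CPM (median 72.3) in unstimulated and 3.72 to 10.4 CPM (median 7.4) in LPS-stimulated WT BMDMs, and from 70.6 to 103 CPM (median 82.1) and 0.271 to 0.99 CPM (median 0.818) in AhR-KO BMDMs. Unstimulated groups overlapped and stimulated groups did not, with an interaction of −3.49 (SE 0.36, adjusted p = 3.34e-06). Tspan14 (ENSMUSG00000037824, chr14:40906445-40966807), a tetraspanin, had the same pattern. Tspan14 ranged from 146 to 307 CPM (median 157) in unstimulated and 28.6 to 57.6 CPM (median 32.6) in LPS-stimulated WT BMDMs, and from 164 to 256 CPM (median 192) and 7.39 to 11.1 CPM (median 8.23) in AhR-KO BMDMs. Unstimulated WT library 33 stood above the rest, and the stimulated AhR-KO libraries lay below all stimulated WT libraries. The interaction was −2.29 (SE 0.28, adjusted p = 3.83e-05). Abcb10, a transporter of the mitochondrial inner membrane, fell from 48.8 ± 3.75 to 16.9 ± 1.28 CPM in WT and from 60.7 ± 9.2 to 7.43 ± 0.881 CPM in AhR-KO BMDMs (mean ± SD over the 6 libraries of a group, as in all such values that follow), an interaction of −1.5 (SE 0.16, adjusted p = 5.41e-06). The response of Hmgn3 (ENSMUSG00000066456, chr9:83109948-83146685), a nucleosome-binding protein, was lost instead. Hmgn3 ranged from 0.769 to 2.77 CPM (median 1.47) in unstimulated and 10.4 to 28.9 CPM (median 20.9) in LPS-stimulated WT BMDMs, and from 0.532 to 0.891 CPM (median 0.704) and 0.505 to 1.26 CPM (median 0.676) in AhR-KO BMDMs. WT libraries rose upon LPS without overlap and AhR-KO libraries overlapped throughout, and the interaction was −3.65 (SE 0.43, adjusted p = 2.81e-05).

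At the head of the higher calls stood Fam43a (ENSMUSG00000046546, chr16:30599723-30602797), whose response was reversed. Fam43a ranged from 25.7 to 99 CPM (median 64) in unstimulated and 15.1 to 19.3 CPM (median 18.4) in LPS-stimulated WT BMDMs, and from 4.73 to 6.46 CPM (median 5.68) and 19.2 to 21.5 CPM (median 20.1) in AhR-KO BMDMs. LPS lowered it in WT and raised it in AhR-KO BMDMs, which brought both genotypes to a like level after stimulation. The interaction was 3.69 (SE 0.31, adjusted p = 2.35e-07). Gem (ENSMUSG00000028214, chr4:11704457-11714752), a small GTPase that acts on calcium channels and the cytoskeleton, was amplified. Gem ranged from 10.7 to 25.2 CPM (median 16.9) in unstimulated and 56.1 to 179 CPM (median 102) in LPS-stimulated WT BMDMs, and from 0.378 to 0.909 CPM (median 0.652) and 72.8 to 101 CPM (median 80.8) in AhR-KO BMDMs. Unstimulated AhR-KO libraries lay far below WT libraries and stimulated groups overlapped, so the interaction of 4.38 (SE 0.39, adjusted p = 4.09e-07) came with a slightly smaller gain in level, a difference of differences of −5.93 CPM.

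Maff (ENSMUSG00000042622, chr15:79346621-79359076), a small Maf factor that pairs with other leucine zipper proteins, had narrow groups. Maff ranged from 21.5 to 27.1 CPM (median 25.9) in unstimulated and 78.4 to 94.6 CPM (median 84.7) in LPS-stimulated WT BMDMs, and from 18.7 to 22.6 CPM (median 20.8) and 146 to 182 CPM (median 174) in AhR-KO BMDMs. Stimulated AhR-KO libraries all exceeded stimulated WT libraries, with an interaction of 1.28 (SE 0.13, adjusted p = 2.24e-06). Hdc (ENSMUSG00000027360, chr2:126593667-126619299), histidine decarboxylase, the enzyme that makes histamine, is also a mast cell marker. Hdc ranged from 1.36 to 7.45 CPM (median 3.8) in unstimulated and 312 to 477 CPM (median 444) in LPS-stimulated WT BMDMs, and from 0.215 to 0.697 CPM (median 0.429) and 528 to 823 CPM (median 611) in AhR-KO BMDMs. Its induction was 6.74 in WT and 10.52 in AhR-KO BMDMs, an interaction of 3.79 (SE 0.43, adjusted p = 1.25e-05). The mast cell and basophil list summed to 534 to 833 CPM in stimulated AhR-KO BMDMs, nearly all of it from Hdc, and no other of the 10 members tested was called (10%, against 4.30% of all genes). In level, all 10 were lower in AhR-KO BMDMs before LPS and 8 after it, with 7 passing the test in each state (6.12% of all genes before LPS and 12.6% after) and median differences of −2.23 and −2.18.

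Igsf8, a tetraspanin partner at the cell surface, rose from 128 ± 14 to 194 ± 9.6 CPM in WT and from 120.0 ± 16.8 to 410.3 ± 19.5 CPM in AhR-KO BMDMs, an interaction of 1.17 (SE 0.14, adjusted p = 3.83e-05). Scimp, an adaptor of Toll-like receptors and MHC class II in the plasma membrane, rose from 44 ± 9.27 to 107 ± 7.23 CPM in WT and from 30.4 ± 4.37 to 217 ± 30 CPM in AhR-KO BMDMs, with 1.56 (SE 0.20, adjusted p = 5.13e-05). In both genes, stimulated AhR-KO libraries exceeded all stimulated WT libraries. Edn1 (ENSMUSG00000021367, chr13:42301476-42307990), the endothelin precursor, responded in AhR-KO BMDMs alone by the test of each genotype. Edn1 ranged from 1.07 to 1.67 CPM (median 1.35) in unstimulated and 1.15 to 2.57 CPM (median 1.94) in LPS-stimulated WT BMDMs, and from 0.453 to 1.41 CPM (median 0.679) and 6.65 to 17.1 CPM (median 11.4) in AhR-KO BMDMs. The WT response was 0.51 and did not pass, the AhR-KO response was 3.84, and the interaction was 3.33 (SE 0.42, adjusted p = 5.34e-05). Tfrc (ENSMUSG00000022797, chr16:32608920-32632794), the transferrin receptor through which cells take up iron, was another gained response. Tfrc ranged from 102 to 158 CPM (median 119.8) in unstimulated and 58.4 to 135 CPM (median 82.9) in LPS-stimulated WT BMDMs, and from 20.3 to 38.9 CPM (median 27.3) and 74.4 to 125 CPM (median 104) in AhR-KO BMDMs. It started far lower in AhR-KO BMDMs and ended at a level that overlapped WT, with an interaction of 2.24 (SE 0.28, adjusted p = 5.34e-05).

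**Figure D3:**
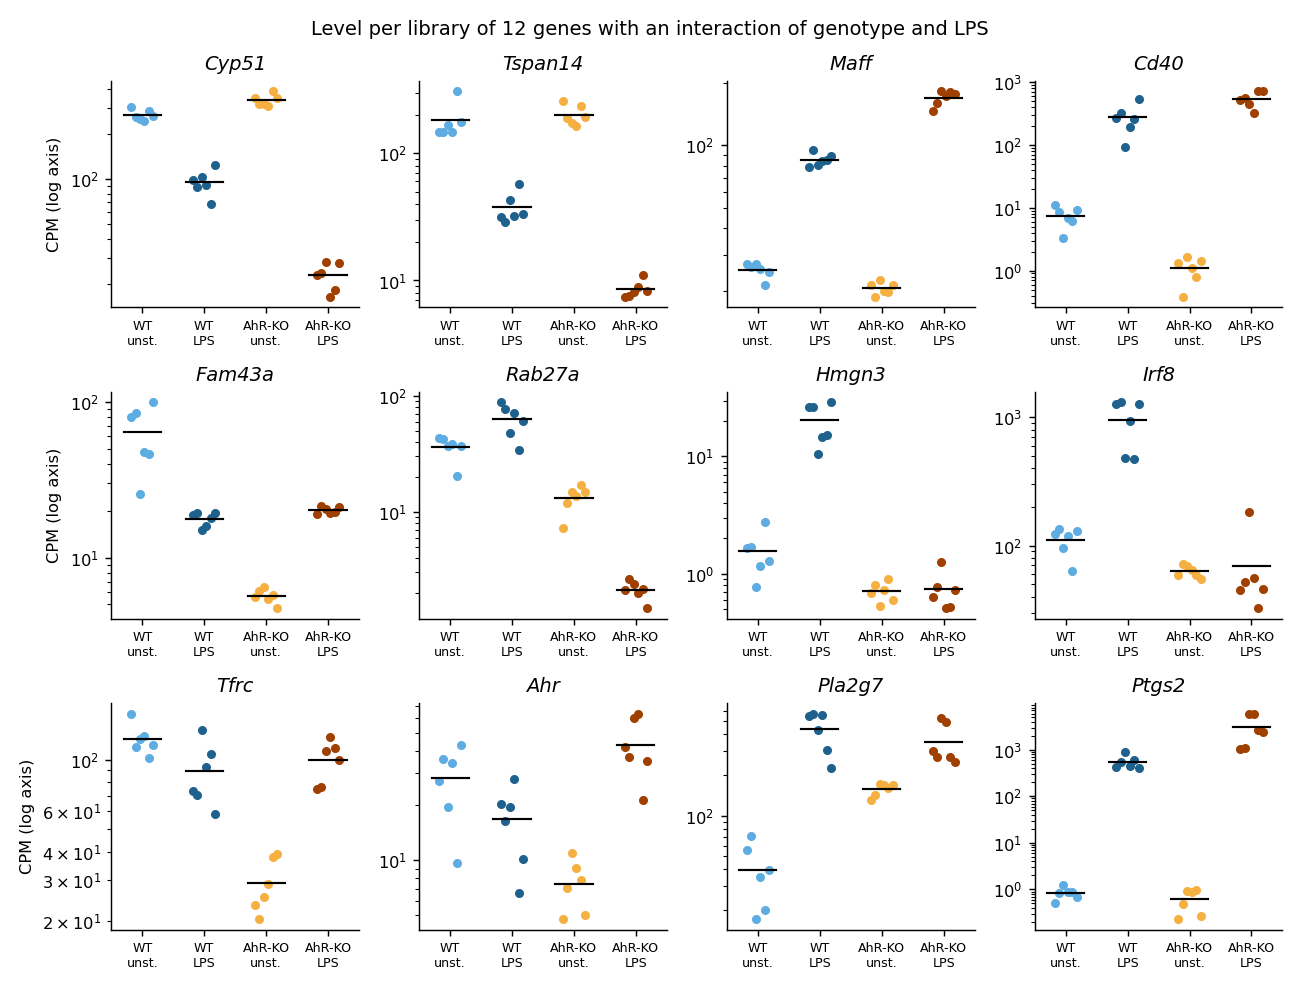
Level of 12 genes in each library (points, CPM on a log axis) with the group mean (line), in unstimulated and LPS-stimulated WT and AhR-KO BMDMs, 6 libraries each. Cyp51 and Tspan14 fell further and Maff, Cd40 and Ptgs2 rose further in AhR-KO BMDMs, Fam43a and Rab27a moved in opposite directions, Hmgn3 and Irf8 rose in WT, Tfrc and Ahr rose in AhR-KO BMDMs, and the rise of Pla2g7 was smaller there.

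The promoters of 4 of these lead genes, those with at least 2 matches to GCGTG, the core of the AhR response element, are shown because the factor deleted here binds that core. Each is the window from 250 bases before to 50 bases after a start site given by RefSeq for GRCm38.p6, the build of the count table, and capitals mark the core on either strand.
Cyp51, chr5:4104648-4104947, minus strand: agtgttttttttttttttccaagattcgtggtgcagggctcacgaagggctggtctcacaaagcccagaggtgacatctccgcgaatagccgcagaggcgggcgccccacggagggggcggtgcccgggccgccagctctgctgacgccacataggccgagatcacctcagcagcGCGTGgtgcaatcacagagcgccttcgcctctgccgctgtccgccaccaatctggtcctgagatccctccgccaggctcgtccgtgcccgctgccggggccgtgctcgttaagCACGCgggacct
Gga2, chr7:122021149-122021448, minus strand: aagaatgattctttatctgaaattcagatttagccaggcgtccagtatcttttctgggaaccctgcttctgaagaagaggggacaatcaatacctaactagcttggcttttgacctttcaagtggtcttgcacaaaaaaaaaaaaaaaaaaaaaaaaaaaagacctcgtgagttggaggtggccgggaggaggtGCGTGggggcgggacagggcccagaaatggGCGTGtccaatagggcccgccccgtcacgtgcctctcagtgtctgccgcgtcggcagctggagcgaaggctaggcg
Maff, chr15:79347270-79347569, plus strand: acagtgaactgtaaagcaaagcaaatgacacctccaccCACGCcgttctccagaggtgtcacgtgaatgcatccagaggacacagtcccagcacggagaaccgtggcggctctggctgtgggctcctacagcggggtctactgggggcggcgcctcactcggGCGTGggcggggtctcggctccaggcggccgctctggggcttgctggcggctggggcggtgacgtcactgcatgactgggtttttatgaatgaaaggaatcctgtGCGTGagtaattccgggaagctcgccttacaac
Tfrc, chr16:32608646-32608945, plus strand: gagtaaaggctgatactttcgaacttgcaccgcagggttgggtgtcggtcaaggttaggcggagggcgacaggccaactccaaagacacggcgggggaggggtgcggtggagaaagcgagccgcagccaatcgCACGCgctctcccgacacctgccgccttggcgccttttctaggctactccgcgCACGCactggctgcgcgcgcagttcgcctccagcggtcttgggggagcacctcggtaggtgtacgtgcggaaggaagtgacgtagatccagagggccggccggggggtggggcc
Cyp51 and Gga2 are lower calls, Maff and Tfrc higher calls. A second Tfrc window, which overlaps the one shown, also held 2 matches. Among the other windows of lead genes, the core was not in those of Fam43a, Abcb10, Hdc, Igsf8 and Edn1, in 2 of 3 for Maff, 3 of 4 for Ffar2, 1 of 2 for Rab27a and 1 of 2 for Tspan14. RefSeq gave promoters for 10529 of the tested genes, and no window was searched for the lead genes Gem, Hmgn3, Fdft1 and Scimp. The core, searched on both strands, was in 48.6% of all 13370 promoters of this length, in 47.9% of 386 promoters of lower calls and in 34% of 309 promoters of higher calls. These windows differ in base composition, with a median of 19 CpG dinucleotides over all, 18 in lower and 9 in higher calls. The AP-1 element TGACTCA, searched on both strands, was in 4.02% of all promoters, in 8.41% of those of higher calls and in 3.63% of those of lower calls. A match is a run of letters and not evidence of binding.

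Cholesterol biosynthesis had the largest share of calls of the gene lists. Of 23 members tested, 16 were called, all lower, against 2.34% of all genes, and the interaction was negative in all 23, with a median of −1.17. LPS repressed the list in both genotypes, with a median response of −1.53 in WT and −2.90 in AhR-KO BMDMs. Beside Cyp51 and Fdft1 the calls covered most steps from acetyl units to sterols. Acat2, which joins acetyl units, had an interaction of −1.17 (SE 0.18, adjusted p = 0.000298), falling from 75 ± 11.2 to 18.1 ± 2.92 CPM in WT and from 104 ± 5.47 to 11.2 ± 1.51 CPM in AhR-KO BMDMs. Hmgcs1, which makes HMG-CoA, fell from 239 ± 10.9 to 62.9 ± 18.5 CPM in WT and from 261 ± 20.8 to 24.8 ± 7.12 CPM in AhR-KO BMDMs, with −1.47 (SE 0.25, adjusted p = 0.000998). Sqle, the squalene epoxidase, had −1.83, adjusted p = 0.00136, and Fdps, the farnesyl diphosphate synthase, −2.09, adjusted p = 0.00138. The others were Sc5d, Mvk, Lss, Hsd17b7, Pmvk, Dhcr7, Tm7sf2, Idi1, Nsdhl and Insig1, between −1.72 and −0.69. All 16 were amplified except Pmvk, whose repression was gained. Srebf2, the regulator of the pathway, was not called (−0.77, adjusted p = 0.897). The number of lower calls ran from 13 to 16 when any library was left out.

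Type I interferon-stimulated genes, which encode antiviral effectors and sensors, moved the other way. Of 30 members, all tested, 14 were called and all of these were higher, against 1.95% of all genes. The median interaction was 1.45 and all 30 were positive. Without stimulation 28 of the 30 were lower in AhR-KO BMDMs and after LPS 29 were higher, with median differences of −0.75 and 0.78, and 6 members passed the test between genotypes before LPS (6.12% of all genes did) and 7 after it (12.6% of all genes). Rsad2, which encodes viperin, rose from 15.8 ± 3.78 to 582 ± 205 CPM in WT and from 5.28 ± 4.4 to 1408 ± 460.2 CPM in AhR-KO BMDMs, with 2.85 (SE 0.50, adjusted p = 0.00117). Cmpk2, a mitochondrial nucleotide kinase, rose from 29.7 ± 6.72 to 317 ± 117 CPM in WT and from 12.1 ± 6.38 to 691 ± 197 CPM in AhR-KO BMDMs, with 2.42 (SE 0.41, adjusted p = 0.000944). Usp18, which removes ISG15 and restrains interferon signalling, rose from 27.5 ± 7.93 to 413 ± 164 CPM in WT and from 6.1 ± 5.18 to 709 ± 216 CPM in AhR-KO BMDMs, with 2.95 (SE 0.52, adjusted p = 0.00136). Irf7, the factor that amplifies interferon production, rose from 34.2 ± 9.53 to 1567 ± 106 CPM in WT and from 12.4 ± 12.2 to 3560.2 ± 455 CPM in AhR-KO BMDMs, with 2.64 (SE 0.50, adjusted p = 0.00221). Stat2 (0.92, adjusted p = 0.896) and Mx1 (2.11, adjusted p = 0.0976) were not called. The count depends on single libraries, of which 1 unstimulated AhR-KO library, number 27, had the highest Cmpk2, Rsad2 and Usp18 of its group. It was 20 without library 27, 8 without unstimulated AhR-KO library 20, 35 or 36, and 9 without library 18, 28, 30, 39 or 40.

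**Figure D4:**
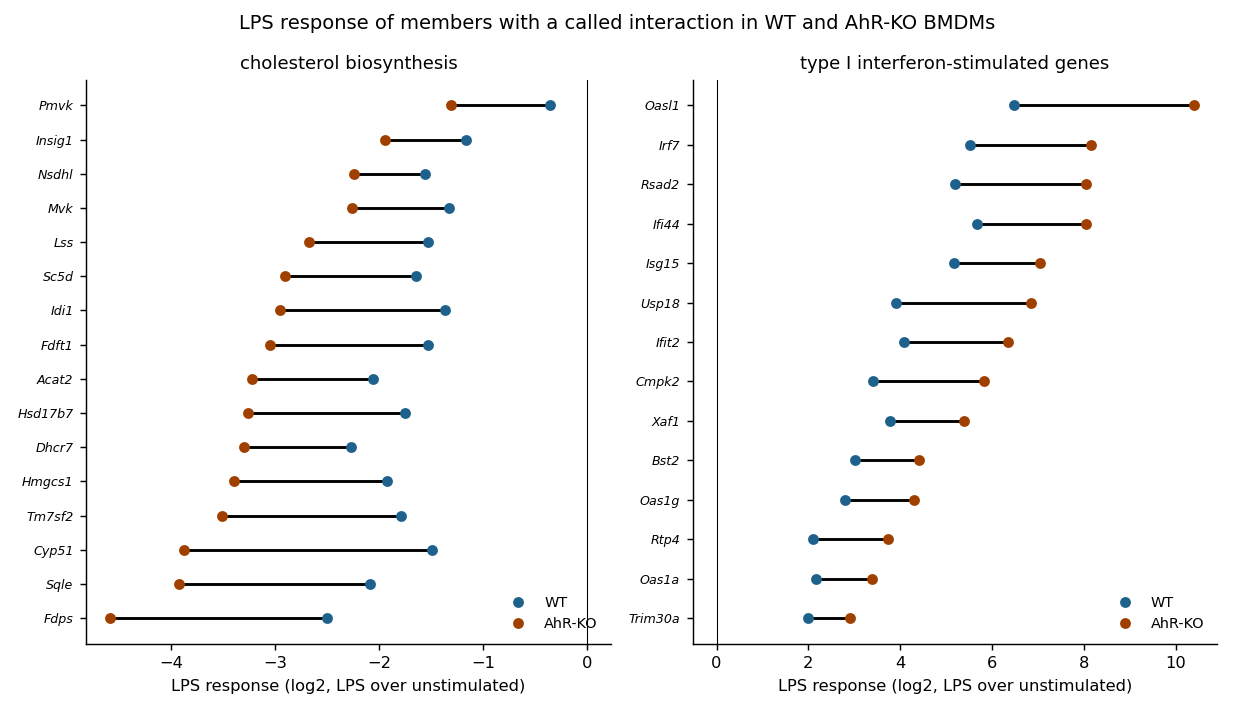
LPS response (log2 of LPS over unstimulated) of the members with a called interaction in the cholesterol biosynthesis list (left, 16 genes) and the type I interferon-stimulated genes (right, 14 genes), with WT and AhR-KO BMDMs joined by a line. In the left panel every AhR-KO response is the lower of the pair, and in the right panel every AhR-KO response is the higher.

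The interferon-inducible GTPases, which attack vacuoles that hold pathogens, went with them. Of 17 tested, 6 were higher (35.3%, against 1.95% of all genes) and none lower, with a median of 1.17 and all 17 positive. Igtp rose from 16 ± 2.32 to 102 ± 12.2 CPM in WT and from 10.2 ± 2.51 to 137 ± 18.1 CPM in AhR-KO BMDMs (1.07 (SE 0.20, adjusted p = 0.00255)), and Tgtp2 rose from 1.42 ± 0.487 to 43.4 ± 16.8 CPM in WT and from 0.457 ± 0.399 to 100.3 ± 23.2 CPM in AhR-KO BMDMs (2.81 (SE 0.58, adjusted p = 0.00497)). Gbp3 (1.59, adjusted p = 0.02) and Irgm1 (1.1, adjusted p = 0.0201) each lost the call under 2 and 1 of 37 alternatives (highest adjusted p = 0.0655 and 0.0998). Tgtp1 and Tgtp2 are near-identical copies, between which unique alignment can lose or misplace reads, and their separate values are uncertain. With total library size 3 of the 17 were called. Of 16 genes of MHC class I presentation, Tap2 (0.93, adjusted p = 0.0213), Psme1 (0.73, adjusted p = 0.0307) and Tap1 (0.84, adjusted p = 0.0405) were higher (18.8%, against 1.95% of all genes), with a median of 0.48. Tap1 and Tap2 form the peptide transporter and Psme1 is a proteasome activator subunit. These calls were marginal, lost in 4, 14 and 24 of 37 alternatives for Tap2, Psme1 and Tap1, with adjusted p up to 0.166. Of 12 genes of MHC class II presentation, H2-Ob (3.92, adjusted p = 0.000744) and H2-Oa (1.54, adjusted p = 0.00345) were higher (16.7%, against the same 1.95%), and the list's median was 0.00. These encode the chains of H2-O, which restrains peptide loading. H2-Ob went from 43.3 ± 24.3 to 34.5 ± 23.4 CPM in WT and from 2.43 ± 1.71 to 29.3 ± 9.55 CPM in AhR-KO BMDMs.

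Among inflammatory cytokines, 7 of 24 tested were called, all higher (29.2%, against 1.95% of all genes), and the median was 1.29. Il12b (ENSMUSG00000004296, chr11:44400063-44414033), the subunit shared by IL-12 and IL-23, had the largest called interaction of the list outside a gene at the count floor. Il12b ranged from 0.136 to 0.675 CPM (median 0.39) in unstimulated and 30.4 to 52.9 CPM (median 41.3) in LPS-stimulated WT BMDMs, and from 0 to 0.151 CPM (median 0.0221) and 57.7 to 467 CPM (median 73.7) in AhR-KO BMDMs. The stimulated AhR-KO libraries all lay above the stimulated WT libraries, and library 31 stood far above the others. The interaction was 4.94 (SE 0.86, adjusted p = 0.00115). Il6 rose from 1.69 ± 0.672 to 587 ± 229 CPM in WT and from 0.836 ± 0.473 to 1909 ± 448 CPM in AhR-KO BMDMs, with 2.71 (SE 0.50, adjusted p = 0.00204). Il33, an alarmin of the IL-1 family, was higher in AhR-KO BMDMs in both states and rose from 1.0 ± 0.569 to 4.03 ± 1.62 CPM in WT and from 5.96 ± 2.6 to 162 ± 31.1 CPM in AhR-KO BMDMs, with 2.75 (SE 0.58, adjusted p = 0.00542). The receptor antagonist Il1rn rose from 954 ± 351 to 3466 ± 1082 CPM in WT and from 531 ± 58.9 to 4927 ± 1100.3 CPM in AhR-KO BMDMs, with 1.35 (SE 0.30, adjusted p = 0.00827). Tnf was called as well (1.26, adjusted p = 0.0229), but had that sign in 2 of the 3 runs. Il23a, the other subunit of IL-23, was called with at most 3 counts in unstimulated AhR-KO BMDMs, and Tnfsf9, a costimulatory ligand, was the last (1.32, adjusted p = 0.0231).

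Chemokines were mixed, with 3 of 21 higher, 2 lower (23.8% in all, against 4.30% of all genes) and a median of 0.15. Ccl2, which recruits monocytes, rose from 10 ± 3.3 to 231 ± 122 CPM in WT and from 4.16 ± 1.59 to 777 ± 493 CPM in AhR-KO BMDMs, with 3.02 (SE 0.61, adjusted p = 0.00428). Cxcl10, which attracts T cells, rose from 3.48 ± 0.974 to 131 ± 19.7 CPM in WT and from 1.19 ± 0.891 to 188 ± 61.2 CPM in AhR-KO BMDMs, with 2.04 (SE 0.51, adjusted p = 0.0216), a call lost with total library size (adjusted p = 0.0522). Ccl12 (ENSMUSG00000035352, chr11:82101845-82103400), a monocyte chemokine close to Ccl2, had a wide spread. Ccl12 ranged from 0.0158 to 0.431 CPM (median 0.168) in unstimulated and 0.34 to 8.2 CPM (median 2.67) in LPS-stimulated WT BMDMs, and from 0 to 0.156 CPM (median 0.0506) and 4.27 to 89.1 CPM (median 21.6) in AhR-KO BMDMs. The stimulated groups overlapped and the interaction of 4.95 (SE 1.29, adjusted p = 0.0269) was lost in 4 of 37 alternatives, among them leaving out unstimulated WT library 26 or stimulated AhR-KO library 39 (highest adjusted p = 0.205). The neutrophil chemokine Cxcl3 was blunted, from 14.1 to 2659 CPM in WT and from 62.6 to 4608 CPM in AhR-KO BMDMs (mean, n = 6; −1.35, adjusted p = 0.0279). Its fold was smaller in AhR-KO BMDMs, its gain in level larger. Ppbp, a platelet chemokine, was low in all groups, from 0.44 to 0.557 CPM in WT and from 3.12 to 0.379 CPM in AhR-KO BMDMs (−3.36, adjusted p = 0.00501). None of 11 chemokine receptors was called, with a median of 0.78.

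Of 13 costimulatory and inhibitory ligands, 4 were higher (30.8%, against 1.95% of all genes) and none lower, with a median of 0.65. Cd40, the receptor for help from T cells, rose from 7.46 ± 2.65 to 276 ± 148 CPM in WT and from 1.11 ± 0.454 to 541 ± 149.6 CPM in AhR-KO BMDMs, and its interaction was 3.72 (SE 0.51, adjusted p = 0.00011). Cd86, a ligand of CD28, rose from 55.3 ± 21.6 to 425 ± 231 CPM in WT and from 7.65 ± 2.84 to 290.2 ± 44.9 CPM in AhR-KO BMDMs, with 2.3 (SE 0.45, adjusted p = 0.00343). The fold was larger in AhR-KO BMDMs from a lower start, and the gain in level was smaller, by a difference of differences of −86.9 CPM. Lgals9, which encodes galectin-9, had 1.06, adjusted p = 0.0457 and lost the call in 24 of 37 alternatives (highest adjusted p = 0.215).

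On the pathway from TLR4 to NF-κB, 3 of 29 members tested were called, 1 higher and 2 lower, with a median of −0.07. This is 10.3%, against 4.30% of all genes and 8.48% of those that responded to LPS in at least 1 genotype. Tlr4 itself had an interaction of −0.16, adjusted p = 0.888. The strongest was Irf8, a factor of monocyte and dendritic cell development. Its induction was lost, from 111 ± 27.1 to 956 ± 394 CPM in WT and from 63.2 ± 6.52 to 69.2 ± 56.3 CPM in AhR-KO BMDMs, with responses of 3.1 and 0.13 and an interaction of −2.97 (SE 0.49, adjusted p = 0.000781). The lowest stimulated WT library stood at 474 CPM and the highest stimulated AhR-KO library at 183 CPM. Relb, a subunit of the noncanonical NF-κB pathway, was blunted (−1.05, adjusted p = 0.0406), a call lost in 22 of 37 alternatives with an adjusted p up to 0.0906. Tlr1, a partner of TLR2, was amplified (1.66, adjusted p = 0.0309), a call lost in 9 (up to 0.0916).

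Of 22 inhibitors of inflammatory signalling, 3 were higher and 1 lower (18.2% in all, against 4.30% of all genes), with a median of 0.28. Socs1, which blocks JAK kinases, rose from 26.1 ± 4.24 to 119.8 ± 16.4 CPM in WT and from 8.4 ± 2.73 to 119 ± 24.7 CPM in AhR-KO BMDMs, with 1.63 (SE 0.26, adjusted p = 0.000593). Atf3, a repressor of inflammatory genes, rose from 22.5 ± 5.27 to 120.5 ± 20.6 CPM in WT and from 41.2 ± 7.57 to 600.3 ± 159 CPM in AhR-KO BMDMs, with 1.45 (SE 0.26, adjusted p = 0.0016). Dusp6, an ERK phosphatase, had 1.31, adjusted p = 0.00617. Socs2 is known as an AhR-responsive member of the family. Its induction was lost, from 65.5 ± 13.7 to 191 ± 75.9 CPM in WT and from 55.5 ± 5.26 to 58.8 ± 20.2 CPM in AhR-KO BMDMs, with −1.46 (SE 0.35, adjusted p = 0.0162). The feedback inhibitor Nfkbia was not called (0.54, adjusted p = 0.758). Of 20 immediate-early genes only Ier3 was called, higher (2.14, adjusted p = 0.0051), a share of 5% that is near that of all genes, with a list median of 0.50.

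In metabolism, Acod1, which makes itaconate, was the 1 call among 12 genes of nitric oxide, arginine and itaconate, with a list median of 0.51. This is 8.33%, against 4.30% of all genes and 8.48% of those that responded to LPS in at least 1 genotype. Acod1 rose from 42 ± 11.5 to 3010.2 ± 327 CPM in WT and from 19.2 ± 9.4 to 5347 ± 685 CPM in AhR-KO BMDMs, with 1.96 (SE 0.36, adjusted p = 0.00204). Nos2, the inducible nitric oxide synthase, had a larger but more variable estimate that was not called (3.05, adjusted p = 0.375). Of 20 genes of glycolysis and HIF-1 targets, 2 were called in opposite directions (10%, against the same 4.30% and 8.48%). The list had a median of 0.63, where that of all genes was −0.05. Hif1a was higher (0.74 (SE 0.16, adjusted p = 0.00827)), a call lost in 1 of 37 alternatives (adjusted p = 0.0919). Pfkfb4, which sets the level of an activator of glycolysis, fell from 56.7 ± 3.53 to 31.5 ± 6.88 CPM in WT and from 77.5 ± 6.69 to 17.8 ± 3.94 CPM in AhR-KO BMDMs, with −1.27 (SE 0.21, adjusted p = 0.000722). None of 20 genes of NRF2 and glutathione defence was called (median 0.05), nor any of 12 genes of LXR and cholesterol efflux (median −0.38).

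Cell cycle and DNA replication genes had a median LPS response of −4.25 in WT and −4.28 in AhR-KO BMDMs. Of 23 tested, 7 were lower and 1 higher (34.8% in all, against 4.30% of all genes), with a median interaction of −0.66. Plk1 (ENSMUSG00000030867, chr7:122159439-122169873), the mitotic kinase, had the smallest p. Plk1 ranged from 21.2 to 41.6 CPM (median 29.1) in unstimulated and 0.294 to 0.942 CPM (median 0.626) in LPS-stimulated WT BMDMs, and from 17.2 to 46.1 CPM (median 36.4) and 0 to 0.101 CPM (median 0.0467) in AhR-KO BMDMs. Unstimulated groups overlapped, and every stimulated AhR-KO library lay below every stimulated WT library. The interaction was −3.73 (SE 0.52, adjusted p = 0.000131). It rests on few counts, 15 over the 6 stimulated AhR-KO libraries and 213 over the stimulated WT libraries. Ccnb2, a mitotic cyclin, fell from 109 ± 26.3 to 1.55 ± 0.537 CPM in WT and from 112 ± 36.2 to 0.149 ± 0.112 CPM in AhR-KO BMDMs, with −3.36 (SE 0.51, adjusted p = 0.000362). Its stimulated AhR-KO libraries held 46 counts in all. Rrm2, a subunit of ribonucleotide reductase, fell from 135 ± 8.5 to 2.83 ± 0.744 CPM in WT and from 145 ± 29.2 to 0.915 ± 0.361 CPM in AhR-KO BMDMs, with −1.73 (SE 0.29, adjusted p = 0.000944). Cdc20, Ccna2, Ccnb1 and Mcm7 were the other lower calls. Ccnd1, the cyclin of the G1 phase, was the exception, since its repression was lost, from 76.5 ± 18.1 to 7.08 ± 1.39 CPM in WT and from 16.6 ± 6.4 to 9.63 ± 5.36 CPM in AhR-KO BMDMs, with 2.65 (SE 0.49, adjusted p = 0.00213). Proliferation markers Mki67 (−1.03, adjusted p = 0.366) and Top2a (−2.18, adjusted p = 0.512) were not called.

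Eicosanoids are lipid mediators made from arachidonic acid by cyclooxygenases and lipoxygenases, and their enzymes were the study's main interest. Of 21 synthesis genes tested, 2 were higher and 2 lower (19% in all, against 4.30% of all genes), with a median of 0.05 that turns to −0.07 with total library size, and of 10 receptor genes none was called (median −0.05). Ptgs2 (ENSMUSG00000032487, chr1:150100031-150108227), the inducible cyclooxygenase, was amplified. Ptgs2 ranged from 0.499 to 1.27 CPM (median 0.842) in unstimulated and 408 to 917 CPM (median 499) in LPS-stimulated WT BMDMs, and from 0.227 to 0.969 CPM (median 0.68) and 1023 to 5992 CPM (median 2476) in AhR-KO BMDMs. Unstimulated groups overlapped and all stimulated AhR-KO libraries lay above all stimulated WT libraries. The interaction was 2.9 (SE 0.60, adjusted p = 0.0051), and limma-voom did not call it (adjusted p = 0.095). Ltc4s (ENSMUSG00000020377, chr11:50236461-50238616), the synthase of leukotriene C4, fell further in AhR-KO BMDMs. Ltc4s ranged from 33.7 to 46.3 CPM (median 40.8) in unstimulated and 9.84 to 21.5 CPM (median 14.1) in LPS-stimulated WT BMDMs, and from 15.2 to 24.3 CPM (median 22.6) and 0.284 to 2.91 CPM (median 1.14) in AhR-KO BMDMs. AhR-KO libraries lay below all WT libraries in both states, and the interaction was −2.61 (SE 0.46, adjusted p = 0.00136). AhR-KO BMDMs started lower and the loss in level was smaller there, a difference of differences of 5.91 CPM.

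Ptgis (ENSMUSG00000017969, chr2:167191805-167240604), the prostacyclin synthase, was low in all groups. Ptgis ranged from 0.0732 to 7.66 CPM (median 0.778) in unstimulated and 0 to 0.24 CPM (median 0.0793) in LPS-stimulated WT BMDMs, and from 0.0662 to 0.422 CPM (median 0.227) and 0.216 to 1.03 CPM (median 0.479) in AhR-KO BMDMs. Unstimulated WT library 34 stood far above the rest. The interaction was 5.36 (SE 1.23, adjusted p = 0.0112), with repression in WT of −4.02 and an AhR-KO response of 1.35 that did not pass, and limma-voom did not call it (adjusted p = 0.0566). Lta4h, the hydrolase that forms leukotriene B4, fell from 175 ± 25.9 to 52 ± 13.2 CPM in WT and from 250.2 ± 28.8 to 41.5 ± 7.26 CPM in AhR-KO BMDMs, with −0.84 (SE 0.23, adjusted p = 0.0361), a call lost in 17 of 37 alternatives (highest adjusted p = 0.0872).

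Alox5 (ENSMUSG00000025701, chr6:116410077-116461178), which encodes the lipoxygenase at the head of leukotriene synthesis, came close to the threshold. Alox5 ranged from 76.7 to 221 CPM (median 192) in unstimulated and 6.02 to 32.9 CPM (median 18.3) in LPS-stimulated WT BMDMs, and from 39.8 to 76.2 CPM (median 69) and 0.401 to 3.03 CPM (median 1.93) in AhR-KO BMDMs. AhR-KO libraries were lower than WT libraries in both states. Its responses were −3.32 in WT and −5.16 in AhR-KO BMDMs, and the interaction of −1.84 (SE 0.54, adjusted p = 0.0554) was not called but passed in 9 of 37 alternatives. Ptgs1 (ENSMUSG00000047250, chr2:36230426-36252272), the constitutive cyclooxygenase, likewise fell upon LPS in both genotypes. Ptgs1 ranged from 128 to 292 CPM (median 246) in unstimulated and 7.96 to 55 CPM (median 26) in LPS-stimulated WT BMDMs, and from 27.5 to 49.9 CPM (median 37.4) and 0.671 to 3.13 CPM (median 1.75) in AhR-KO BMDMs. Its interaction was −1.37 (SE 0.52, adjusted p = 0.178), and it passed in 3 of 37. Hpgds, a prostaglandin D synthase (1.67 (SE 0.65, adjusted p = 0.197)), Alox12, a lipoxygenase that rose from near 0 in both genotypes (1.83 (SE 1.08, adjusted p = 0.551)), and Ptges, a prostaglandin E synthase (0.38 (SE 0.38, adjusted p = 0.882)), were not called.

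Of 14 tested genes of the AhR pathway, 3 were higher and 1 lower (28.6% in all, against 4.30% of all genes), with a median of 0.37. Beside Ahr, Tiparp, a mono-ADP-ribosyltransferase that feeds back on AhR, was a gained response. It went from 74.2 ± 14.2 to 76.3 ± 14 CPM in WT and from 51.8 ± 3.88 to 148 ± 44.9 CPM in AhR-KO BMDMs, with 1.48 (SE 0.25, adjusted p = 0.000783). Scin, an actin-severing protein, was higher in fold (2.17, adjusted p = 0.0373), a call lost in 20 of 37 alternatives (highest adjusted p = 0.0834). Scin ranged from 5.53 to 27.7 CPM (median 12.9) in unstimulated and 101 to 413 CPM (median 293) in LPS-stimulated WT BMDMs, and from 0.219 to 1.5 CPM (median 0.518) and 44 to 56.4 CPM (median 53.6) in AhR-KO BMDMs. Scin was thus lower in AhR-KO BMDMs in both states, and it lies within 10 Mb of Ahr. Ugt1a7c, a glucuronosyltransferase whose exons overlap those of its neighbours and whose counts are uncertain, was lower (−1.21, adjusted p = 0.0418), a call lost in 20 (up to 0.0802). The targets Cyp1b1 (0.71, adjusted p = 0.962) and Nqo1 (−0.81, adjusted p = 0.245) were not called, and Cyp1a1, Cyp1a2 and Aldh3a1 had too few counts. Of 10 kynurenine pathway genes, which break down tryptophan and make AhR ligands, Haao was lower and Kyat3 higher (20% in all, against 4.30% of all genes). The list's median of 0.78 ran from 0.31 to 0.93 with each library left out in turn. Haao went from 22.6 ± 6.72 to 13.1 ± 6.38 CPM in WT and from 8.15 ± 2.8 to 0.283 ± 0.235 CPM in AhR-KO BMDMs, with −4.03 (SE 0.62, adjusted p = 0.000362). Haao started lower in AhR-KO BMDMs and its loss in level was smaller there, a difference of differences of 1.65 CPM. Kyat3 had 0.92, adjusted p = 0.0271 and lost the call in 8 of 37 (highest adjusted p = 0.0776).

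Of the 20 blunted genes, the induced ones with the largest interactions were Serpinb9b, H2-M2 and Pla2g7. Pla2g7 (ENSMUSG00000023913, chr17:43568098-43612201) encodes the plasma platelet-activating factor acetylhydrolase. Pla2g7 ranged from 17.1 to 71.3 CPM (median 37.6) in unstimulated and 227 to 569.5 CPM (median 487) in LPS-stimulated WT BMDMs, and from 131 to 171 CPM (median 164) and 249.7 to 532 CPM (median 286) in AhR-KO BMDMs. Unstimulated AhR-KO libraries all exceeded unstimulated WT libraries and stimulated groups overlapped, so that the smaller fold went with a higher start, and the interaction was −2.29 (SE 0.43, adjusted p = 0.00213). H2-M2 (ENSMUSG00000016283, chr17:37480851-37483552), a nonclassical MHC class I gene, had the same high start. H2-M2 ranged from 1.54 to 10.3 CPM (median 8.04) in unstimulated and 192 to 1020.1 CPM (median 708) in LPS-stimulated WT BMDMs, and from 36.8 to 109 CPM (median 89.3) and 485 to 2219.6 CPM (median 1175) in AhR-KO BMDMs. Its fold was smaller in AhR-KO BMDMs (−2.47 (SE 0.65, adjusted p = 0.0307)), while its gain in level was larger by a difference of differences of 620.4 CPM, and 7 of 37 alternatives did not call it (highest adjusted p = 0.0599). Serpinb9b, a serine protease inhibitor, had −3.0 (SE 0.77, adjusted p = 0.0246), a call lost in 5 of 37, among them without unstimulated AhR-KO library 19 or stimulated WT library 30 (highest adjusted p = 0.106).

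Of the 7 blunted repressions, the 3 largest among genes that averaged 1 CPM or more were those of Cd34, Zranb3 and Gm47071. Cd34 (ENSMUSG00000016494, chr1:194938819-194961279), a surface mucin of progenitors and mast cells, was lower in AhR-KO BMDMs throughout. Cd34 ranged from 37.6 to 86.7 CPM (median 53.9) in unstimulated and 2.94 to 7.59 CPM (median 5.88) in LPS-stimulated WT BMDMs, and from 1.47 to 4.19 CPM (median 2.54) and 0.465 to 1.21 CPM (median 0.755) in AhR-KO BMDMs. AhR-KO libraries lay below all WT libraries in both states, and the interaction of 1.5 (SE 0.41, adjusted p = 0.0376) was lost in 16 of 37 alternatives (highest adjusted p = 0.080). Zranb3, an annealing helicase of replication forks, went from 21.3 ± 6.48 to 2.24 ± 1.09 CPM in WT and from 29.4 ± 3.43 to 10.2 ± 4.53 CPM in AhR-KO BMDMs, with 1.71 (SE 0.47, adjusted p = 0.035), lost in 17 (up to 0.0901). Gm47071 (ENSMUSG00000114493, chr13:55826250-56084849) is annotated as an antisense transcript and counts were taken by strand, and it had 2.04 (SE 0.41, adjusted p = 0.00416).

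Of the 41 reversed genes, Slc25a29, Actr3b and Snn had the largest negative interactions among those induced in WT. Slc25a29 (ENSMUSG00000021265, chr12:108825873-108835883), a mitochondrial carrier of basic amino acids, rose in WT and fell in AhR-KO BMDMs. Slc25a29 ranged from 0.817 to 1.97 CPM (median 1.39) in unstimulated and 3.77 to 24 CPM (median 14.8) in LPS-stimulated WT BMDMs, and from 0.234 to 0.499 CPM (median 0.359) and 0.0404 to 0.275 CPM (median 0.122) in AhR-KO BMDMs. The stimulated groups were far apart, with −4.73 (SE 0.62, adjusted p = 7.44e-05). Actr3b, an actin-related protein, went from 0.668 ± 0.313 to 6.15 ± 4.27 CPM in WT and from 0.635 ± 0.214 to 0.168 ± 0.19 CPM in AhR-KO BMDMs, with −5.16 (SE 0.83, adjusted p = 0.000597). Snn, stannin, went from 29.8 ± 7.13 to 67.8 ± 45.1 CPM in WT and from 44 ± 19.8 to 4.9 ± 1.94 CPM in AhR-KO BMDMs, with −4.35 (SE 0.58, adjusted p = 7.55e-05). Among genes repressed in WT, Cdh17 (ENSMUSG00000028217, chr4:11758147-11817895), an intestinal cadherin, had the largest interaction. Cdh17 ranged from 6.04 to 23.6 CPM (median 17.3) in unstimulated and 1.03 to 2.16 CPM (median 1.37) in LPS-stimulated WT BMDMs, and from 0 to 0.144 CPM (median 0.0556) and 0 to 0.472 CPM (median 0.206) in AhR-KO BMDMs. WT libraries fell without overlap, and AhR-KO libraries were near 0 in both states, so the interaction of 5.43 (SE 0.86, adjusted p = 0.000534) rests on few counts there. Dmwd, a WD repeat protein, went from 4.88 ± 2.14 to 1.26 ± 0.401 CPM in WT and from 0.449 ± 0.319 to 4.0 ± 2.35 CPM in AhR-KO BMDMs, with 5.09 (SE 0.83, adjusted p = 0.000683).

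Among gained inductions was Ly6a (ENSMUSG00000075602, chr15:74994877-74998031), the surface antigen known as Sca-1. Ly6a ranged from 47.7 to 131 CPM (median 70) in unstimulated and 28.8 to 85.4 CPM (median 55) in LPS-stimulated WT BMDMs, and from 0 to 1.4 CPM (median 0.356) and 6.57 to 30.3 CPM (median 18.2) in AhR-KO BMDMs. Unstimulated AhR-KO libraries were nearly devoid of it and stimulated ones reached the lower edge of the WT range, with 5.83 (SE 0.78, adjusted p = 7.55e-05). Pgf (ENSMUSG00000004791, chr12:85166635-85177790), placental growth factor, followed the same course with a wider spread. Pgf ranged from 11.7 to 35.7 CPM (median 23.8) in unstimulated and 25.6 to 33.9 CPM (median 30.3) in LPS-stimulated WT BMDMs, and from 0.227 to 1.33 CPM (median 0.698) and 1.25 to 113 CPM (median 19.2) in AhR-KO BMDMs. Its interaction was 5.35 (SE 0.97, adjusted p = 0.00167), which limma-voom did not call (adjusted p = 0.0783). Gm15433, a processed pseudogene whose reads may come from a similar gene, had 5.93 (SE 1.04, adjusted p = 0.00133). Among gained repressions, Abcg4 (ENSMUSG00000032131, chr9:44273188-44288615), a transporter of the sterol-exporting ABCG family, was level in WT and nearly silenced in AhR-KO BMDMs. Abcg4 ranged from 2.67 to 10.4 CPM (median 4.82) in unstimulated and 3.41 to 13.3 CPM (median 8.18) in LPS-stimulated WT BMDMs, and from 3.43 to 9.19 CPM (median 5.48) and 0 to 0.747 CPM (median 0.197) in AhR-KO BMDMs. Only the stimulated AhR-KO group stood apart from the other 3, with −4.99 (SE 0.79, adjusted p = 0.00055). Rasgrf2, an exchange factor for Ras, went from 1.6 ± 0.556 to 1.13 ± 0.609 CPM in WT and from 2.4 ± 0.749 to 0.0548 ± 0.0721 CPM in AhR-KO BMDMs (−4.86 (SE 0.77, adjusted p = 0.000551)), and Frmd4b, a scaffold with a FERM domain, went from 2.38 ± 1.32 to 1.51 ± 0.815 CPM in WT and from 3.34 ± 2.17 to 0.115 ± 0.0644 CPM in AhR-KO BMDMs (−4.17 (SE 0.81, adjusted p = 0.00309)). Both rest on few counts in the stimulated AhR-KO libraries, 17 for Rasgrf2 and 35 for Frmd4b.

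The largest interaction of the genes named was that of Msrb3 (ENSMUSG00000051236, chr10:120781096-120899101), a methionine sulfoxide reductase, a lost induction. It rose in WT alone by the test of each genotype. Msrb3 ranged from 0 to 0.237 CPM (median 0.165) in unstimulated and 2.89 to 5.3 CPM (median 4.36) in LPS-stimulated WT BMDMs, and from 0 to 1.44 CPM (median 0.138) and 0.0404 to 0.315 CPM (median 0.137) in AhR-KO BMDMs. All stimulated WT libraries exceeded all others, with −6.16 (SE 1.08, adjusted p = 0.00128). Tcaf2 (ENSMUSG00000029851, chr6:42623016-42645254), a partner of TRPM8 channels, went from 1.21 ± 0.758 to 30.3 ± 17.6 CPM in WT and from 0.459 ± 0.20 to 0.23 ± 0.253 CPM in AhR-KO BMDMs, with −5.64 (SE 0.99, adjusted p = 0.0013), and Atp1b1, a sodium pump subunit, went from 0.378 ± 0.142 to 5.02 ± 3.12 CPM in WT and from 0.712 ± 0.856 to 0.176 ± 0.197 CPM in AhR-KO BMDMs, with −5.71 (SE 1.22, adjusted p = 0.00656). Of 24 lost repressions with more than 3 counts in every group, 21 were lower in AhR-KO BMDMs before LPS and 3 higher. That test passed for 18 of the 24, against 6.12% of all genes. The class is a fall in WT without one called in AhR-KO BMDMs, so the call in part fixes a lower start. Itgb7 (ENSMUSG00000001281, chr15:102215995-102231944), the integrin chain that pairs for homing to the gut, is 1 of the 24. Itgb7 ranged from 6.06 to 38.9 CPM (median 31.1) in unstimulated and 0.514 to 3.36 CPM (median 2.62) in LPS-stimulated WT BMDMs, and from 0.348 to 1.36 CPM (median 0.721) and 0.243 to 1.33 CPM (median 0.592) in AhR-KO BMDMs. Unstimulated WT libraries stood above all others, and the interaction was 3.43 (SE 0.69, adjusted p = 0.00394). Dnal1, a dynein light chain, went from 10.7 ± 4.45 to 2.31 ± 0.686 CPM in WT and from 0.243 ± 0.186 to 0.462 ± 0.159 CPM in AhR-KO BMDMs, with 3.12 (SE 0.53, adjusted p = 0.000944). Dmpk, a protein kinase, went from 13.2 ± 5.39 to 0.131 ± 0.219 CPM in WT and from 0.203 ± 0.177 to 0.093 ± 0.0761 CPM in AhR-KO BMDMs, with 5.43 (SE 1.21, adjusted p = 0.00937). In AhR-KO BMDMs, Dnal1 held 96 and 139 counts and Dmpk 91 and 27, before and after LPS. Such low starts leave little room for a fall.

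Further amplified genes were named for the size of their interaction. Ttc9, a tetratricopeptide repeat protein, rose from 3.8 ± 1.68 to 25 ± 7.03 CPM in WT and from 0.065 ± 0.105 to 13 ± 9.41 CPM in AhR-KO BMDMs, with 4.73 (SE 0.87, adjusted p = 0.0019), and a smaller gain in level (difference of differences −8.25 CPM). Fam189a2 fell from 18.3 ± 5.49 to 5.02 ± 2.25 CPM in WT and from 8.54 ± 2.44 to 0.0709 ± 0.061 CPM in AhR-KO BMDMs, with −4.97 (SE 0.66, adjusted p = 7.55e-05). Its loss in level was smaller in AhR-KO BMDMs (difference of differences 4.84 CPM), whose stimulated libraries held 22 counts in all. Tpbgl fell from 3.74 ± 1.42 to 0.132 ± 0.123 CPM in WT and from 11.4 ± 3.71 to 0.0251 ± 0.0273 CPM in AhR-KO BMDMs, with −3.88 (SE 0.93, adjusted p = 0.0162), which limma-voom did not call (adjusted p = 0.148).

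The remaining lists held from 0 to 2 calls each, to be read against 4.30% of all genes. In complement, Cfp, the properdin gene, was the 1 of 16 called (1.07, adjusted p = 0.0051). It was a gained response, from 502 ± 105 to 389.6 ± 64.4 CPM in WT and from 487 ± 65.4 to 791 ± 152 CPM in AhR-KO BMDMs. Of 18 scavenger and phagocytic receptors, the Fc receptors Fcgr4 (1.63, adjusted p = 0.0212) and Fcgr1 (1.38, adjusted p = 0.0424) were higher, the latter lost in 20 of 37 alternatives (highest adjusted p = 0.0844). None of 15 matrix metalloproteinases and TIMPs was called (median 0.20), none of 16 alveolar macrophage markers (median −0.63) and none of 14 neutrophil markers (median 0.02). With each library left out in turn, these medians ran from −0.13 to 0.41, from −0.70 to −0.44 and from −0.23 to 0.26. Among other marker lists, 1 or 2 members were called. Dcn, a fibroblast proteoglycan, rose from 0.224 ± 0.169 to 0.822 ± 0.454 CPM in WT and from 0.203 ± 0.0835 to 11.9 ± 4.69 CPM in AhR-KO BMDMs (3.96, adjusted p = 0.00204). Its list had a median of −0.77, which ran from −1.63 to 0.52 with each library left out in turn. Il7r (2.08, adjusted p = 0.0449) was called among 3 tested members of the lymphoid list, a call lost in 22 of 37 alternatives (up to 0.124), and 17 of its 20 members had too few counts. The platelet genes Pf4 (−1.9, adjusted p = 0.0037) and Ppbp, 2 of 5 tested members of the erythroid and megakaryocyte list, were lower, and Clec9a, a marker of a dendritic cell subset, was lower at from 2.53 to 2.06 CPM in WT and from 6.42 to 1.07 CPM in AhR-KO BMDMs (−2.3, adjusted p = 0.00179). Over all lists, 93 of 494 tested genes were called, where 4.30% of all genes were.

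**Figure D5:**
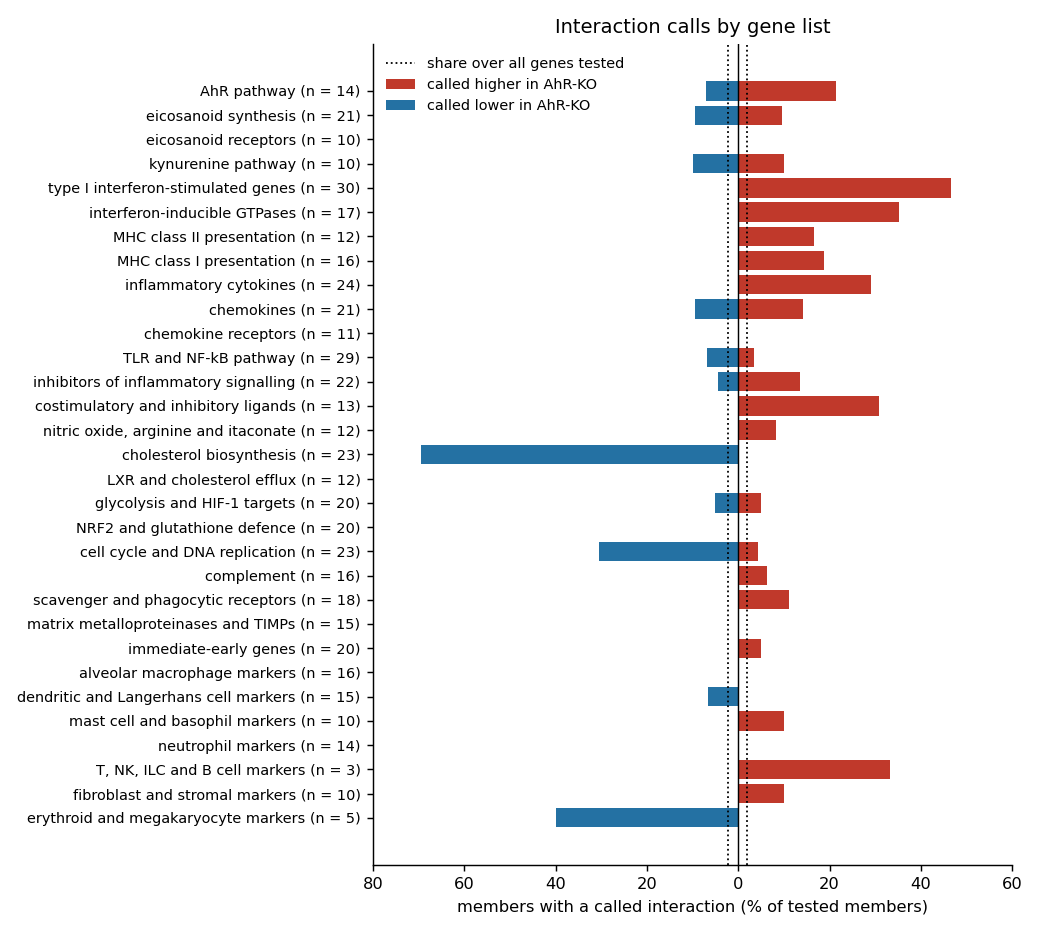
Share of the tested members of each of 31 gene lists with a called interaction, higher in AhR-KO to the right and lower to the left of 0 (% of tested members), with the shares over all genes tested, 1.95% and 2.34%, as dotted lines. Cholesterol biosynthesis reaches furthest to the left (16 of 23) and the type I interferon-stimulated genes furthest to the right (14 of 30).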

How the data were processed

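RNA was sequenced from 24 BMDM cultures, 6 in each of 4 groups, which were taken from the labels. The deposited values are counts: per the file headers and the study's methods, the authors used GSNAP for alignment to mm10 and featureCounts 2.0.1 to count fragments with a unique alignment, by strand (reverse), on genes of Ensembl 98, leaving out fragments that overlap several genes. They are whole numbers without normalization, beside the length of each gene's exons. Base calls came from bcl2fastq 2.20.0, per the labels. The 92 spike-in sequences had 1 count in all and were left out. Symbols and positions came from GENCODE M21, which names 55154 of 55421 genes.

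Libraries held 45106052 to 76992663 counts, at which the spread between libraries (a biological coefficient of variation of 49.1%) exceeded counting noise for abundant genes. All libraries were fitted together in edgeR 4.0.16 (R 4.3.3), with TMM factors, 1 coefficient for every group, filterByExpr (16593 genes) and the robust quasi-likelihood F-test of the interaction contrast, two-sided, with Benjamini-Hochberg adjustment over all genes tested and no minimum fold change. LPS responses and genotype differences came from the same fit and share its libraries. CPM are scaled by the TMM factors. A group with at most 3 counts over its 6 libraries was taken as being at the floor. Within runs of library numbers, differences of differences of mean log2(CPM + 0.5) were taken.

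Genes named are the 8 calls with the smallest p in each direction and the 3 largest interactions per class and direction of response, both among genes that averaged 1 CPM or more and lay above the floor, with Ahr, the genes the study names for these cells, and up to 4 called members per list by smallest p. Other genes named from the lists or outside them were chosen after their values were seen. The contrast, lists and rules were chosen with earlier results of these data known. The 31 lists (559 members, 551 genes, 494 tested) were written from general knowledge. Values of a few members are not reported here.

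Alternatives were DESeq2 size factors, total library size, DESeq2 1.42.0, limma-voom (limma 3.58.1), no filter, a minimum mean of 1 CPM, covariates (run, length slope, first residual component, Y-linked expression), glmTreat against a fold of 1.2, a minimum absolute log2 change of 1, and each library left out in turn. Leaving out the pair of libraries that lack Y-linked counts, or libraries 19 and 33, with the lowest length slopes, was chosen after seeing the data. On simulated counts for 16593 genes, with 200 given an interaction of 2 on the log2 scale, edgeR called 47.0% of these and 2 unchanged genes, DESeq2 58.5% and 21, and limma-voom 41.0% and 3. Tables and plots were made with Python 3.11.15, numpy 2.4.6, pandas 2.3.3 and matplotlib 3.10.9. Promoters are from RefSeq (GRCm38.p6) and matched by symbol.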

Additional observations from a re-analysis of the deposited data

Results flagged for a closer look

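Among 424 groups of 6 libraries of the named genes, 30 held a highest or lowest library whose gap to the nearest of the others was large against the group's range (Dixon's test at the 95% level), where chance alone gives about 1 in 20 groups. By library they fell on number 33 (8 groups), 27 (5), 31 (4), 32 (3), 19, 24 and 29 (2 each) and 28, 34, 39 and 40 (1 each).

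Unstimulated WT library 33 was the lowest of its group for Rab27a (20.2 CPM), Dmwd (1.23 CPM), Dmpk (3.72 CPM), Relb (15 CPM) and Alox5 (76.7 CPM) and the highest for Tspan14 (307 CPM), Il1rn (1659 CPM) and Fcgr4 (27.9 CPM). Unstimulated AhR-KO library 27 was the highest of its group for the interferon-stimulated genes Cmpk2 (25 CPM), Rsad2 (14.1 CPM) and Usp18 (16.6 CPM), and for Tap1 (153 CPM) and Gm15433 (0.211 CPM). Stimulated AhR-KO library 31 was the highest for Irf8 (183 CPM) and Il12b (467 CPM) and the lowest for Igtp (103 CPM) and Tgtp2 (55.2 CPM). Library 32 of that group was the highest for Rsad2 (2336 CPM), Dcn (21.2 CPM) and Irf7 (4433 CPM), and library 24 the lowest for Scin (44.0 CPM) and Ugt1a7c (7.84 CPM).

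Unstimulated AhR-KO library 19 was the lowest for Hif1a (119 CPM) and Lta4h (196 CPM), and library 28 the highest for Dnal1 (0.612 CPM). Stimulated WT library 29 was the lowest for Il33 (1.24 CPM) and the highest for Dmpk (0.571 CPM). Unstimulated WT library 34 was the highest for Ptgis (7.66 CPM), and stimulated AhR-KO libraries 39 and 40 were the highest for Actr3b (0.542 CPM) and Rasgrf2 (0.191 CPM).

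The LPS responses of the 2 genotypes differed by the test of the interaction itself for 713 genes, those of the report.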

How the results depend on the processing

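No called interaction changed direction under any of the alternatives. In place of 713, the total of calls was 712 with DESeq2 size factors, 701 with limma-voom and 698 with a minimum mean of 1 CPM. These kept 698, 608 and 634 of the 713. Other totals were 679 with Y-linked expression as a covariate, 520 with no filter and 525 with glmTreat. The total was 613 without the libraries that lack Y-linked counts, 748 without libraries 19 and 33 and 564 to 782 with each library left out in turn. DESeq2 gave 1125 (522 higher, 603 lower), a factor for the run of library numbers 1201 (521 and 680), the length slope as a covariate 2729 (1336 and 1393) and the first residual component, which held 78.0% of the residual variance, 2750 (1351 and 1399). The last 3 included all 713. Total library size moved the median of all genes by −0.13 and gave 802 calls, 31.4% of them higher instead of 45.4%.

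The classes grew with the number of calls. Amplified, blunted, reversed, gained and lost genes were 633, 53, 71, 297 and 145 with the run as a factor, 1478, 171, 149, 593 and 331 with the length slope, and 1513, 182, 136, 572 and 340 with the residual component. DESeq2 gave 600 amplified, 43 blunted and 148 lost genes, no filter gave 12 blunted, glmTreat 52 lost, and a minimum LPS response of 1 on the log2 scale 24 reversed genes. With each library left out, blunted genes ranged from 12 to 28, amplified from 299 to 427, reversed from 33 to 55, gained from 145 to 214 and lost from 56 to 95. The lowest blunted counts were those without unstimulated WT library 17 (13), unstimulated AhR-KO library 36 (13) or stimulated AhR-KO library 40 (12). The cause of these moves was not tested.

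By the stated rules 106 genes were named, and the other genes in the text are not in these counts. Of the 101 called among the 106, 76 stayed called under every alternative and 25 lost the call in some. Of the 5 not called, 2 were called in some. No paired analysis was possible because no library number is shared between groups and the labels do not tie cultures to animals. The fit with the run as a factor is the nearest to one. At this spread edgeR recovered 47.0% of simulated interactions of 2 on the log2 scale, and other sizes were not simulated.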

Other observations

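The genes of these paragraphs belong to no list and were chosen after their values were seen. They were not tallied against other genes of their kind. Fads2, a fatty acid desaturase, fell from 83.8 to 9.97 CPM in WT and from 103 to 0.961 CPM in AhR-KO BMDMs (means of 6 libraries, as below), an interaction of −3.67 (SE 0.57, adjusted p = 0.000388). Its neighbour Fads1 had −1.2, adjusted p = 0.0351. Acss2, which makes acetyl-CoA from acetate, had −0.95, adjusted p = 0.0204, Acsl3, an acyl-CoA synthetase, −0.95, adjusted p = 0.00816, and Tmem97, the sigma-2 receptor that binds NPC1, −1.08, adjusted p = 0.0208. Fabp5, a fatty acid-binding protein, was level in WT and fell in AhR-KO BMDMs, from 245 to 225 CPM in WT and from 448 to 45.9 CPM in AhR-KO BMDMs (−3.16 (SE 0.42, adjusted p = 7.55e-05)), and its pseudogene copy Gm6166 gave nearly the same value (−3.2 (SE 0.43, adjusted p = 8.74e-05)). Which of the copies the counted reads came from was not tested, so each value is uncertain.

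Atf4, the main factor of the response to amino acid shortage, rose from 71.9 to 190.3 CPM in WT and from 59.6 to 264 CPM in AhR-KO BMDMs (0.74 (SE 0.17, adjusted p = 0.0123)). Its known targets Ddit3 (1.6, adjusted p = 0.0102) and Trib3 (1.31, adjusted p = 0.011) were amplified as well. Ifitm3, an interferon-induced protein that blocks viral entry, rose from 30 to 842 CPM in WT and from 4.07 to 1352 CPM in AhR-KO BMDMs (3.56 (SE 0.48, adjusted p = 8.05e-05)), from a much lower start in AhR-KO BMDMs.

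Among surface and secreted proteins, Cd180, a TLR4-like receptor, fell in WT and rose in AhR-KO BMDMs, from 17.4 to 6.16 CPM in WT and from 11.5 to 35.3 CPM in AhR-KO BMDMs (3.11 (SE 0.46, adjusted p = 0.000285)), and so did Spp1, which encodes osteopontin, one of the most abundant of these transcripts, from 3423 to 1772 CPM in WT and from 2856 to 4677 CPM in AhR-KO BMDMs (1.66 (SE 0.40, adjusted p = 0.0153)). Cd72, a lectin of B cells and macrophages, was nearly absent from unstimulated AhR-KO BMDMs and rose there, from 22.8 to 12.5 CPM in WT and from 0.333 to 7.3 CPM in AhR-KO BMDMs (5.28 (SE 0.69, adjusted p = 6.98e-05)). S100a4, a calcium-binding protein of motile cells, fell upon LPS in AhR-KO BMDMs and did not pass the test in WT, from 133 to 73.4 CPM in WT and from 119 to 6.7 CPM in AhR-KO BMDMs (−3.3 (SE 0.52, adjusted p = 0.000488)). The long noncoding transcript Ptgs2os2, which lies downstream of Ptgs2 on chromosome 1, was amplified like its neighbour, from 0.66 to 11.9 CPM in WT and from 0.394 to 48 CPM in AhR-KO BMDMs (2.74 (SE 0.35, adjusted p = 6.55e-05)).

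The last gene inside the threshold was Trim34b (1.37, adjusted p = 0.0491) and the nearest outside it Tmem263 (−0.82, adjusted p = 0.0501).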
